A study of Mus musculus with 8 samples.

Results

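The Hoxa cluster is a run of homeobox genes on mouse chromosome 6, and its 9 members described here are, in cluster order, Hoxa2, Hoxa3, Hoxa4, Hoxa5, Hoxa6, Hoxa7, Hoxa9, Hoxa10 and Hoxa11. They were taken as every non-control array probe whose RefSeq accession maps to one of these symbols. That gave 10 probes, 2 of them for Hoxa9, out of 27206 probes for 20641 genes on the array. The probes were on 1-colour microarrays of primary spheres, which are free-floating aggregates grown from dissociated cells. Mice of strain 129+Ter/SvJcl, 3 weeks old, supplied the superior mesenteric ganglion, a sympathetic ganglion of the abdomen. They were hemizygous for TH-MYCN, in which the promoter of tyrosine hydroxylase drives human MYCN and leads to neuroblastoma. Both groups carry the transgene, so no array shows ganglion cells without it. For each of 4 biological replicates, called animals here, cells were divided between a medium with retinoic acid, RA (+), and one without it, RA (-), and spheres were collected after 8 days, which gave 4 arrays per medium. The labels do not give the dose of retinoic acid, and the comparison asks how Hoxa transcripts differed when the same ganglion's cells grew without it.

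Hox genes encode homeodomain transcription factors that give cells of the embryo their position along the head-to-tail axis. Within a cluster their order on the chromosome follows the order in which they are switched on and how far forward in the body they are expressed, so that genes with low numbers are expressed early and toward the head. Retinoic acid binds nuclear receptors that sit on short DNA elements and is known for switching on the low-numbered end of Hox clusters first.

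The sequences upstream of 3 adjacent genes are shown because, among the 4 tested members, Hoxa5 had the largest change between media and Hoxa5, Hoxa6 and Hoxa7 had the widest ranges between animals. Each is the 250 bases before the transcription start in RefSeq, build GRCm38.p6, minus strand, printed 5′ to 3′. Hoxa5 lies at chr6:52204588-52204837, Hoxa6 at chr6:52208673-52208922 and Hoxa7 at chr6:52218574-52218823. Capitals mark matches to the motifs searched.
Hoxa5: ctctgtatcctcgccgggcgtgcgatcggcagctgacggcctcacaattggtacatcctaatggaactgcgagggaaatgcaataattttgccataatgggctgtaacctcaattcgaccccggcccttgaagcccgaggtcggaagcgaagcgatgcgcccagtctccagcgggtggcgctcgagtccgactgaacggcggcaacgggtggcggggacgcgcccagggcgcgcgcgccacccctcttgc
Hoxa6: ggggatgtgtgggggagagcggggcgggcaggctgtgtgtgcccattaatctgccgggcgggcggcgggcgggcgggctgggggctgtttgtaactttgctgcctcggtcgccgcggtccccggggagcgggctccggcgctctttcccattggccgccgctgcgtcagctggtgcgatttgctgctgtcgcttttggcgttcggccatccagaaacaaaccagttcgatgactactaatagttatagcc
Hoxa7: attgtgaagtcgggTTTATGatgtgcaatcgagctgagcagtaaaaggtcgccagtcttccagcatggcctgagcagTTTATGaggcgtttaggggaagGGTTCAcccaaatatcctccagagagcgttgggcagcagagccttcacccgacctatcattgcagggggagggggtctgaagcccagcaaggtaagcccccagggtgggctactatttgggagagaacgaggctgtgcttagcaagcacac
The motifs were searched on both strands. They were the hexamer AGGTCA, from which retinoic acid response elements are built, its variants with the letters GGGTCA or with the letters AGTTCA, and the variant written as GGTTCA, direct repeats of these hexamers with gaps of 1, 2 or 5 bases, the letters TTTATG known from binding sites of posterior homeodomain proteins and of CDX proteins, and TGATTNAT, known from joint HOX and PBX sites. Hoxa7 held 2 TTTATG matches, starting 236 and 173 bases before the start, and 1 GGTTCA match at 151 bases. TTTATG was found in 10.8% and any of the 4 hexamers in 38.6% of all 32851 promoter windows of this length. None of these letters was in the Hoxa5 or Hoxa6 window, where G and C made up 63.6% and 65.2% of the bases, against 54.8% in Hoxa7. Of the 9 members, 8 had a window in the RefSeq table. Among the others, Hoxa2 held TGATTNAT (2.82% of windows) and Hoxa11 held GGGTCA (11.6%), and no window of a member held a direct repeat. These matches are letters in a window and not measured binding.

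Levels are log2 processed signals relative to the 75th percentile of the same array, and a probe is called detected where the scanner software flagged it as well above background. The 75th percentile was 228 to 306 intensity units, the median local background 26 to 29, and 48.5% to 55.3% of non-control spots were detected per array. All 16 sympathetic neuroblast markers were detected, with 6 lower and 6 higher without retinoic acid, against 28.2% and 36.1% of all tested genes. The Hox genes were measured in bulk, where fewer expressing cells and less RNA per cell cannot be told apart. All 8 arrays lay on 1 slide. The arrays of animals 1 and 2 were in one row of positions and those of animals 3 and 4 in the other, and the media took different columns, so that row and pair of animals, and column and medium, cannot be told apart. Changes are RA (-) minus RA (+), fitted with limma across 13539 genes with the animal as a block and called at a Benjamini-Hochberg adjusted p under 0.05. The test covered genes detected on at least 4 of the 8 arrays.

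The detected members lay between Hoxa3 and Hoxa9 in the cluster, with Hoxa4 undetected among them. Hoxa3, Hoxa5, Hoxa6, Hoxa7 and Hoxa9 were detected on at least 1 array, and Hoxa2, Hoxa4, Hoxa10 and Hoxa11 on none. In RA (+) medium 3, 2, 5 and 5 members were detected in animals 1 to 4, and in RA (-) medium 1, 1, 5 and 2. Only 4 members, Hoxa5, Hoxa6, Hoxa7 and Hoxa9, passed the filter, and 2 of these, Hoxa5 and Hoxa7, were called lower, against 28.2% of all tested genes called lower, 36.1% called higher and 64.3% called in either direction. Hoxa5 passed the filter through RA (+) medium, where it is high (4 arrays, against 1 in RA (-) medium), so its place in this count is not independent of the filter, and with detection required on all 8 arrays Hoxa7 alone is counted. The median change of these 4 was −0.77 and that of all tested genes 0.07.

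**Figure D1:**
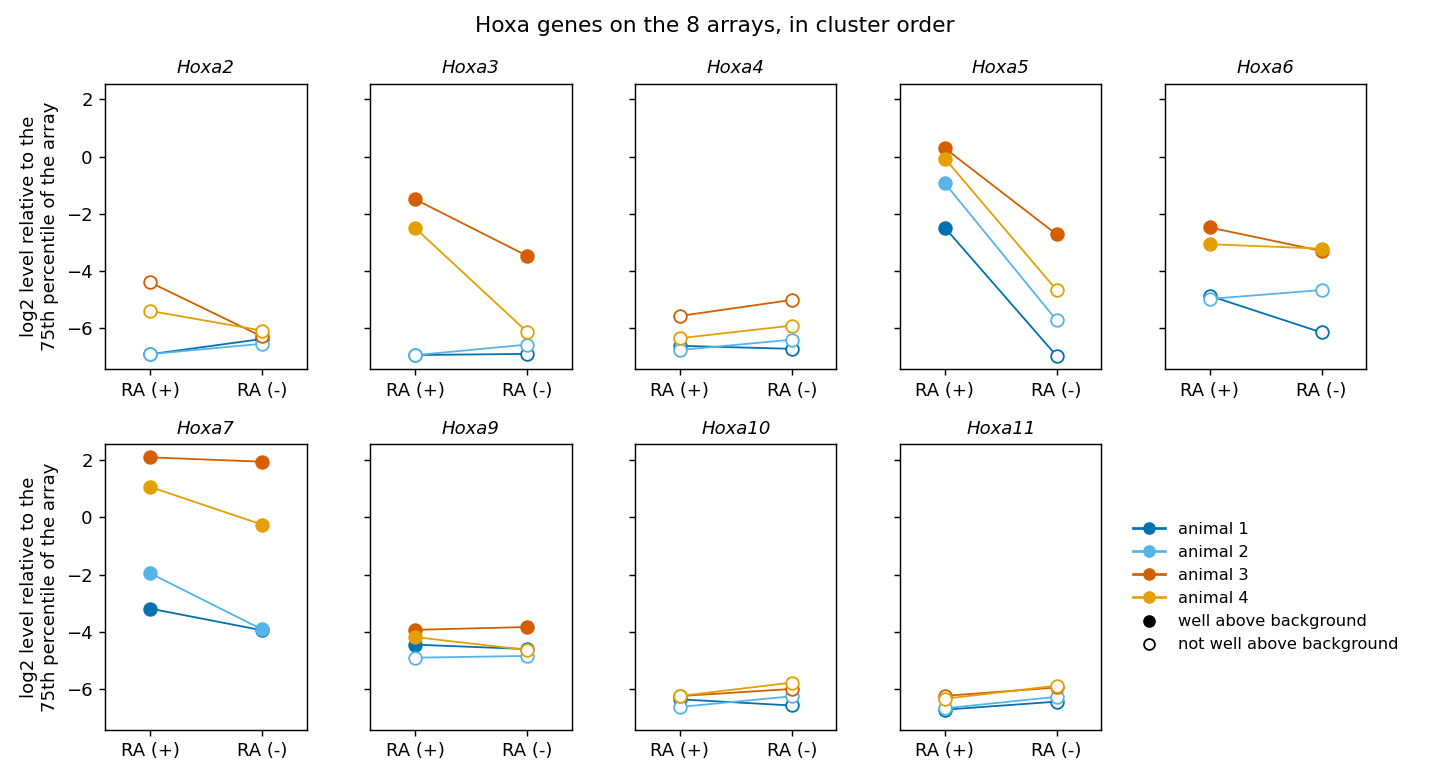
Log2 level of each Hoxa gene relative to the 75th percentile of its array (vertical axis) in the 2 media, with 1 line per animal; filled points were well above background and open points were not, and Hoxa9 is drawn by the probe used in the test. Hoxa5 falls in every animal, while Hoxa7 is separated mainly by animal, from 2.10 in animal 3 to −3.18 in animal 1 in RA (+) medium.

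Hoxa2, which patterns the hindbrain and the pharyngeal arches, was not detected on any array. Its levels were −6.90, −6.90, −4.39 and −5.39 in RA (+) animals 1 to 4 and between −6.54 and −6.07 in RA (-) medium. Signals below the detection flag give no order between arrays or media.

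Hoxa3, needed for the thymus and parathyroid, was detected in RA (+) animals 3 and 4 and in RA (-) animal 3. The levels in RA (+) animals 1 to 4 were −6.93, −6.94, −1.49 and −2.48, and in RA (-) medium −6.89, −6.57, −3.46 and −6.11. As processed signal, before scaling, the 3 detected spots read 81.5, 53.4 and 23.8 units, and the other 5 read 2.48 to 3.40. Hoxa3 was thus measured in 2 animals only, the lower value of each was in RA (-) medium, and the ranges of the media overlapped. It missed the detection filter by 1 array; with no filter its log2 change was −1.30 (SE 0.73, n = 4 animals), which limma did not call (adjusted p = 0.198).

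Hoxa4, a gene of neck patterning, was not detected, with levels from −6.76 to −5.56 in RA (+) and from −6.71 to −5.01 in RA (-) medium.

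Hoxa5, which acts in lung and neck development, fell without retinoic acid in every animal. Its level was −2.48, −0.92, 0.29 and −0.06 in RA (+) animals 1 to 4, and −6.96, −5.72, −2.72 and −4.66 in RA (-) animals 1 to 4. The media did not overlap, although the highest RA (-) value, from animal 3, came close to the lowest RA (+) value, from animal 1. Across all tested genes, 23.8% had every RA (-) array below every RA (+) array. The mean went from −0.79 ± 1.24 to −5.02 ± 1.80 (SD, n = 4), a log2 change of −4.22 (SE 0.30) that limma called lower (adjusted p = 0.000190). The change was −4.48, −4.80, −3.01 and −4.60 in animals 1 to 4. Hoxa5 was detected on all 4 RA (+) arrays and on 1 RA (-) array, that of animal 3, so animal 3 alone had a measured value on both sides and the fitted change has no exact size. Under normexp background correction with quantile normalization, which draws dim spots together, the change was −1.73 and was still called.

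Hoxa6, the neighbour of Hoxa5, had no called change. The values in RA (+) animals 1 to 4 were −4.86, −4.97, −2.47 and −3.06, and those in RA (-) medium −6.14, −4.66, −3.29 and −3.21. It was detected in both media in animals 3 and 4 and in neither medium in animals 1 and 2, so the arrays separated by animal and the media overlapped. The log2 change was −0.49 (SE 0.26, n = 4), with −1.28, 0.31, −0.82 and −0.16 in animals 1 to 4 (adjusted p = 0.154 by limma). Without animal 2, the only one in which it was higher in RA (-) medium, the change was −0.75 and was called (adjusted p = 0.0451). Normexp with quantile normalization gave −0.11, not called.

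Hoxa7, a gene of thoracic patterning, was the only member detected on all 8 arrays. Its levels were −3.18, −1.95, 2.10 and 1.07 in RA (+) animals 1 to 4 and −3.94, −3.91, 1.95 and −0.25 in RA (-) medium. The processed signals behind these values were 33.2, 79.3, 979 and 627 units in RA (+) medium and 19.2, 16.2, 1010 and 198 in RA (-) medium. Animals 3 and 4 stood above animals 1 and 2 in both media, and the media overlapped. Within each animal the scaled RA (-) value was lower, by −0.76, −1.96, −0.15 and −1.32 on the log2 scale. In animal 3 the processed signal before scaling was slightly higher in RA (-) medium, 1010 against 979 units. The fitted change was −1.05 (SE 0.29, n = 4) and was called lower by limma (adjusted p = 0.0216). The call rests on the pairing: without the animal block the adjusted p was 0.590. It was also lost without animal 2 (−0.74, adjusted p = 0.0501), without animal 4 (−0.96, adjusted p = 0.0714) and in animals 3 and 4 alone (−0.73, adjusted p = 0.0727), while animals 1 and 2 alone gave −1.36 (adjusted p = 0.0457). Under normexp with quantile normalization the change was −0.61 (adjusted p = 0.00730).

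Hoxa9, a gene of blood progenitors and of leukaemia, had no called change. By its brighter probe the levels were −4.44, −4.90, −3.93 and −4.18 in RA (+) animals 1 to 4 and −4.60, −4.84, −3.83 and −4.63 in RA (-) medium, with detection on 3 RA (+) arrays and 1 RA (-) array. Animal 3 was highest in both media and animal 2 lowest, and the media overlapped. The change was −0.11 (SE 0.11; adjusted p = 0.419 by limma), 2 animals went each way, and the sign turned under spike-in scaling (0.040, adjusted p = 0.920). The other probe was detected only in RA (+) animal 3.

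Hoxa10 and Hoxa11, genes of the lower trunk, the limb and the reproductive tract, were not detected on any array. Hoxa10 lay between −6.62 and −5.77, and Hoxa11, measured by 10 spots per array, between −6.72 and −5.88. With no filter on dim probes Hoxa11 had a change of 0.36 (limma adjusted p = 0.0197), where the median of all genes was 0.18. Hoxa11os, a non-coding transcript on the opposite strand at Hoxa11, was detected on 7 arrays and had a change of 0.13 (SE 0.12; limma adjusted p = 0.401). Hoxa13 was not detected on any array. No other non-coding transcript of the cluster in the RefSeq gene order matched a probe.

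By position, then, the change was −4.22 at Hoxa5, −0.49 at Hoxa6, −1.05 at Hoxa7 and −0.11 at Hoxa9. The values of the 4 animals for Hoxa5, −4.80 to −3.01, did not overlap those for Hoxa6, −1.28 to 0.31, or those for Hoxa7, −1.96 to −0.15. In 3 of the 4 animals the Hoxa5 value is set against an undetected RA (-) spot, and the separation depends on the processing: under normexp with quantile normalization the values for Hoxa5 were −0.85, −1.77, −1.99 and −2.31 in animals 1 to 4 and overlapped those for Hoxa7, which were −0.18, −0.85, −0.26 and −1.16. They did not overlap those for Hoxa6, which lay between −0.22 and −0.040. The values for Hoxa6 and Hoxa7 overlapped each other, and those for Hoxa9, −0.45 to 0.10, lay within the range of Hoxa6. The low-numbered genes Hoxa2 and Hoxa4 were too dim to give a change, so the series gives no gradient from the start of the cluster.

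Outside the cluster, the adjacent gene on the side of Hoxa2 had a larger fall than any tested member. Skap2, an adaptor protein of Src-family kinase signalling, stood at 3.06, 3.25, 3.47 and 2.97 in RA (+) animals 1 to 4 and at −2.73, −3.05, −2.56 and −2.59 in RA (-) medium, detected on every array. Its media were far apart and its animals close together, unlike those of Hoxa7. The change was −5.92 (SE 0.13, n = 4), a 60.5-fold difference that limma called (adjusted p = 2.35e-05), and −4.53 under normexp with quantile normalization, also called. Next out, Snx10, a sorting nexin, had a change of −0.87 (SE 0.07; adjusted p = 0.000287), and Cbx3, a heterochromatin protein, rose by 0.83 (SE 0.11; adjusted p = 0.00135), or by 0.41 under normexp with quantile normalization. On the Hoxa13 side, the homeobox gene Evx1 was not detected. Hibadh, an enzyme of valine breakdown, had a change of −0.40 (SE 0.07; adjusted p = 0.00345), a call lost under spike-in scaling (−0.25, adjusted p = 0.463), and Tax1bp1, an autophagy receptor, had −0.17 (SE 0.11; adjusted p = 0.215), which passed without animal 3 (−0.28, adjusted p = 0.0290).

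**Figure D2:**
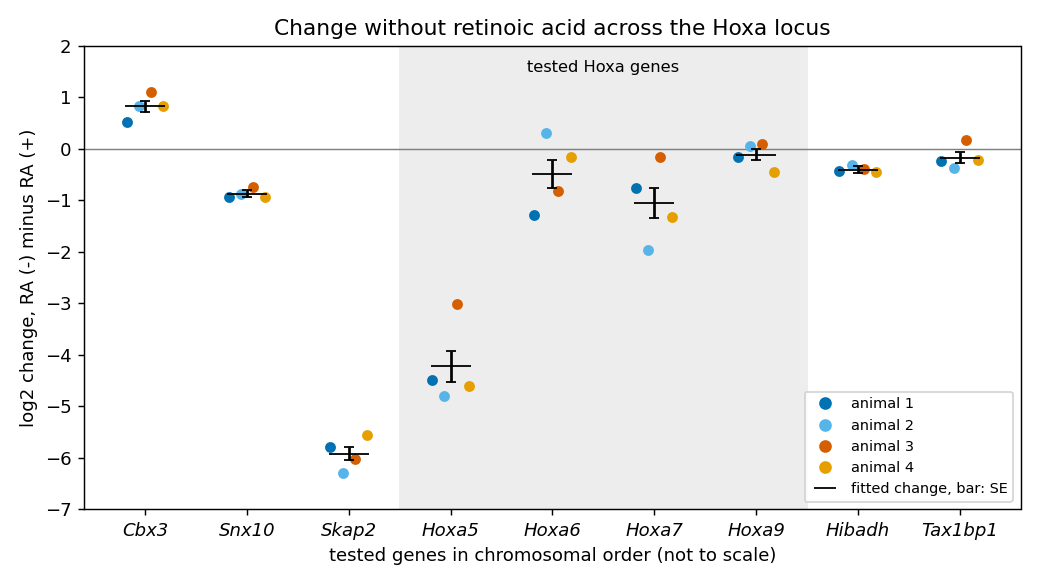
Log2 change, RA (-) minus RA (+), of the tested Hoxa genes (shaded) and their nearest tested protein-coding neighbours in chromosomal order, not to scale; points are the 4 animals, the horizontal line is the fitted change and the bar its standard error. Skap2 (−5.92) and Hoxa5 (−4.22) lie far below the other genes, which lie between −1.05 and 0.83.

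Genes of the other Hox clusters with the same numbers give the paralogues of these members. In the Hoxb cluster all 7 tested genes were called lower, in Hoxc 4 of 5 and in Hoxd 2 of 4, with median changes of −4.18, −0.79 and −0.59. Over all tested genes 28.2% were called lower, with a median change of 0.07. Of the Hoxb genes, 5 of 7 passed the filter through RA (+) medium, with detection on 0 or 1 RA (-) array, so that a lower call was favoured by the filter; the tested Hoxc and Hoxd genes were detected on all 8 arrays. Hoxb5, the paralogue of Hoxa5, stood at 5.93 ± 0.20 (SD, n = 4) in RA (+) medium and was detected on no RA (-) array, a difference of at least 1189-fold. Hoxc5 had a change of −1.36 (SE 0.18). In the group of Hoxa6, Hoxb6 was at least 139-fold lower and Hoxc6 had a change of −0.79 (SE 0.12). These bounds set the mean of the RA (+) arrays against, on each RA (-) array, the dimmest detected probe or the gene's own signal where that was higher. They hold for the main scaling: the changes of −8.34 and −4.81 for Hoxb5 and Hoxb6 under normexp with quantile normalization are smaller than these bounds.

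Hoxb7, the only other tested gene in the group of Hoxa7, had a change of −3.68 (SE 0.24), or −1.49 under normexp with quantile normalization. In the group of Hoxa9, Hoxc9 had −0.67 (SE 0.10), a call lost under spike-in scaling (adjusted p = 0.0934), and Hoxd9 −0.80 (SE 0.16), lost without the animal block (adjusted p = 0.0626). In the group of Hoxa3, Hoxb3 fell from 2.17 ± 0.11 to −1.75 ± 0.17 (SD, n = 4) and Hoxd3 had a change of −0.80 (SE 0.14), or −0.51 under normexp with quantile normalization. In that of Hoxa4, Hoxb4 had −4.18 (SE 0.39; −1.70 under normexp with quantile normalization), and Hoxc4 (−0.18) and Hoxd4 (−0.38) were not called by the main test but passed under 3 and 6 other settings. The genes of number 8, which the Hoxa cluster lacks, ranged from −5.30 for Hoxb8 (at least 10.4-fold, and −1.83 under normexp with quantile normalization) through −1.36 for Hoxc8 to −0.16 for Hoxd8, which was called only without animal 3 (−0.32, limma adjusted p = 0.0257). No test was made of one cluster against another.

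**Figure D3:**
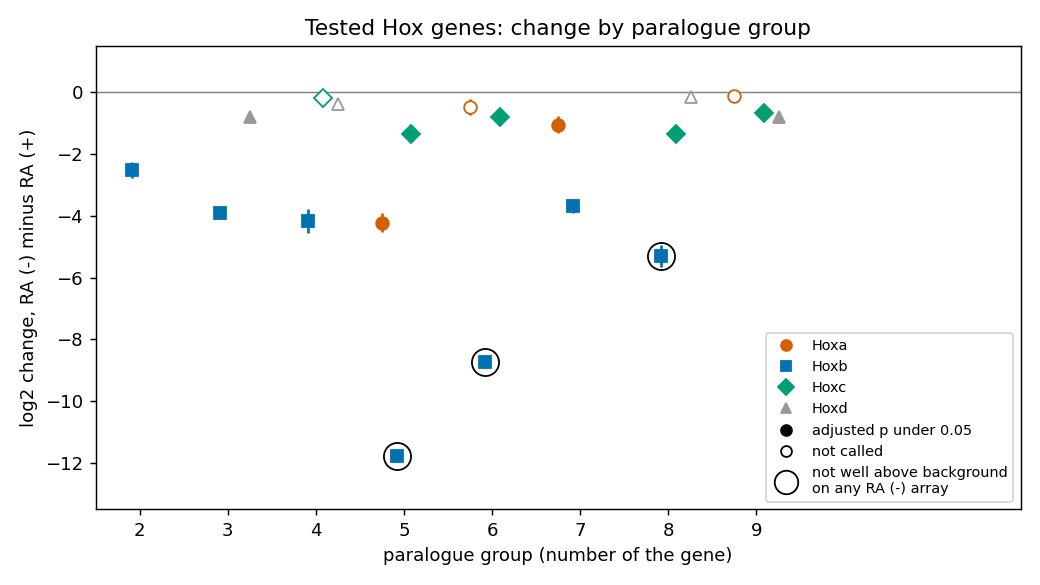
Fitted log2 change, RA (-) minus RA (+), of each tested Hox gene (vertical axis, bar: SE) by its number in the cluster, coloured by cluster, with filled symbols for an adjusted p under 0.05. Ringed genes (Hoxb5, Hoxb6, Hoxb8) lacked the well-above-background flag on every RA (-) array, so that their fitted change is no bound; Hoxa5 (−4.22) lies between Hoxb5 and Hoxc5 (−1.36), and Hoxa9 (−0.11) is the tested Hox gene nearest to 0.

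Differences between animals were wide for the tested Hoxa genes. Averaged over both media, Hoxa7 stood at −3.56, −2.93, 2.02 and 0.41 in animals 1 to 4, a range of 5.59, against a median range of 0.32 over all tested genes. A wider range was found for 2 genes (0.0148%). Hoxa5 had means of −4.72, −3.32, −1.21 and −2.36 and a range of 3.51, exceeded by 0.0960% of genes, and Hoxa6 had −5.50, −4.81, −2.88 and −3.14 and a range of 2.62, exceeded by 0.244%. In each of these genes animal 3 was highest and animal 4 next. The Hoxa5 means of animals 1, 2 and 4 each include an undetected RA (-) spot, so the range of Hoxa5 rests in part on background values. Hoxa6 was detected in animals 3 and 4 only, so that its range rests on a background value at the low end. Hoxa3, outside the test, was likewise detected in animals 3 and 4 only. Under normexp with quantile normalization the ranges were 3.81, 1.33 and 0.57, exceeded by 1 gene, by 28 genes and by 4.39% of genes, where the median range was 0.23. Hoxa9 had a range of 0.99, exceeded by 3.69% of genes in the main scaling and by 59.6% under normexp with quantile normalization.

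A moderated F test of the animal term in limma, added after these levels had been seen, called 6 of 13539 genes (0.0443%) and no Hoxa gene. Hoxa7 ranked 7th by p (unadjusted p = 3.92e-05) and had an adjusted p of 0.0758, and Hoxa5, Hoxa6 and Hoxa9 each had an adjusted p of 0.286; at an unadjusted p under 0.05 all 4 pass, as do 16.5% of all tested genes. Of the 6 called genes, Eif2s3y, Ddx3y and Uty are Y-linked. The others are Slc15a2, Tfpi and Platr14. Animals 3 and 4 shared a row of the slide, and the mean of that row minus the other was 4.46 for Hoxa7, 2.23 for Hoxa5 and 2.15 for Hoxa6. Over all tested genes the median of this difference was −0.011, and it exceeded 1 in size for 56 genes (0.414%).

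Paralogues in the Hoxb cluster differed between animals as well, with ranges of 2.66 for Hoxb7, 2.15 for Hoxb8, 1.61 for Hoxb6 and 1.44 for Hoxb4. Hoxb6 and Hoxb8 were detected on no RA (-) array and Hoxb4 and Hoxb7 on 1, so these ranges rest in part on background values. The limma F test of the animal term called none of them (adjusted p 0.286 to 0.378). Hoxd9 had a range of 1.27, exceeded by 1.83% of genes, and Hoxd4 of 0.98. Meis2, from the list of cofactors below, had a range of 3.30, with animals 3 and 4 above animals 1 and 2 in both media. It was undetected in RA (+) animal 1. Hoxb3 had a range of 0.17, Hoxc9 of 0.27 and Skap2 of 0.35, near or below the median gene. That of Hoxc8 was 0.48, exceeded by 24.9% of genes. The summed signal of 15 fibroblast markers, in units of the array's 75th percentile, was 11.3, 10.03, 13.7 and 10.99 in RA (+) animals 1 to 4 and 14.0, 10.9, 10.8 and 9.64 in RA (-) animals 1 to 4, where Col1a1, Col1a2, Col3a1, Fap, Postn and Thy1 were detected on all 8 arrays, Dcn on the 4 RA (+) arrays, and Pdgfra, Lum, Tcf21 and Meox1 on none. This sum was highest in animal 3 in RA (+) medium and in animal 1 in RA (-) medium. In RA (-) animal 1 it was mostly Thy1, whose levels were 3.12, 2.33, 1.47 and 1.39 in RA (-) animals 1 to 4. Of the next brightest markers in RA (-) medium, Col1a2 was highest in animal 3 and Postn in animal 4. The order of the animals in the RA (-) sum thus rests largely on Thy1. The part of fibroblasts in the differences between animals was not tested. The summed signal of the 9 Hoxa members was 0.42, 0.90, 6.21 and 3.47 in RA (+) and 0.18, 0.22, 4.35 and 1.11 in RA (-) medium, highest in animal 3 in both.

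**Figure D4:**
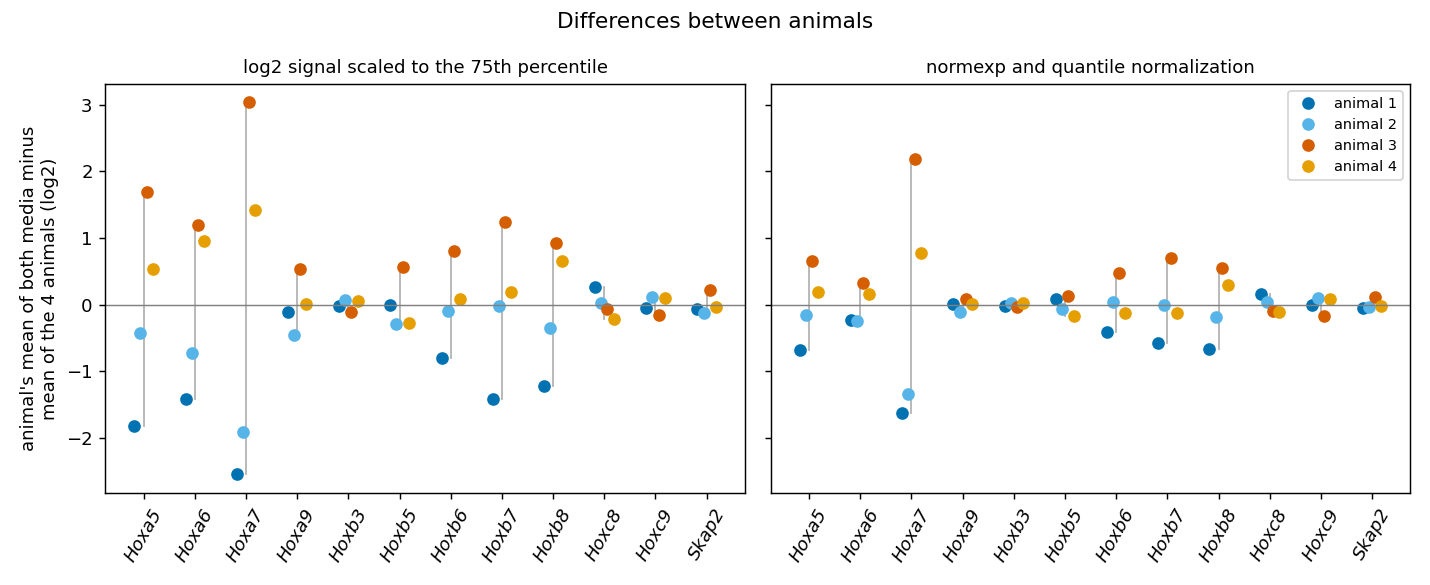
Mean of both media for each animal minus the mean of the 4 animals (log2, vertical axis) for the tested Hoxa genes, 7 genes of the Hoxb and Hoxc clusters and Skap2, under the main scaling (left) and under normexp with quantile normalization (right). The 4 animals of Hoxa7 span 5.59 on the left and 3.81 on the right, while those of Hoxb3, Hoxc9 and Skap2 lie close to 0.

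Genes that work with or on Hox proteins were read from lists, beside all tested genes, of which 28.2% were called lower and 36.1% higher. Of 9 tested cofactors, homeodomain proteins that bind DNA beside Hox proteins, 2 were called lower and 5 higher, with a median change of 0.34. Pbx3 had −2.65 (SE 0.07) and Meis3 −0.83 (SE 0.11), while Meis2 rose by 2.78 (SE 0.41), or by 1.498 under normexp with quantile normalization. Meis1 had 0.40, a call lost under that normalization (−0.0035, adjusted p = 0.966) and under spike-in scaling (adjusted p = 0.0764). Of 16 tested genes of retinoic acid receptors and metabolism, 8 were called lower and 3 higher, with a median change of −0.26. Stra6, the retinol uptake receptor, had a change of −3.09 (SE 0.31), Dhrs3, which reduces retinaldehyde, −5.00 (SE 0.12), and Cyp26b1, which degrades retinoic acid, −12.59 with detection on 1 of 4 RA (-) arrays; the 3 that rose were Aldh1a1, Aldh1a3 and Crabp2.

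Of 24 tested chromatin and transcription factors that act on Hox clusters, 6 were called lower and 10 higher, with a median change of 0.11. Both counts lay near the shares of all tested genes, 28.2% lower and 36.1% higher. The subunits of Polycomb repressive complex 2, which keeps Hox genes silent, included Ezh2, which rose by 1.58 (SE 0.08), Suz12 by 0.92 (SE 0.08) and Eed by 0.66 (SE 0.08), while Ezh1 had −1.10 (SE 0.13). Ctcf, which binds the boundaries of chromatin domains, rose by 0.77. Cdx2 and Cdx4, activators of the middle of Hox clusters in the embryo, were not detected, and Cdx1 was detected only in RA (-) animal 4.

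Some markers of other cells were called between media, where 28.2% of all tested genes were called lower and 36.1% higher. Of tested fibroblast markers 4 of 7 were called lower and 1 higher (median −0.74), of glia 3 of 9 lower (−0.21), of immune cells 3 of 5 lower (−0.51), of endothelium 1 of 4 lower (−0.07) and of adrenal cortex 1 of 3 higher (0.35). The summed signal of immune markers was 19.3 to 23.8 in RA (+) and 14.9 to 17.1 in RA (-) medium, and that of glial markers 26.6 to 29.1 and 13.8 to 17.6, so that neither overlapped between media. The sum of fibroblast markers overlapped, at 10.03 to 13.7 and 9.64 to 14.0, as did the sums of endothelial (17.01 to 20.6 and 19.3 to 23.2) and adrenocortical markers (0.57 to 0.72 and 0.70 to 0.83). The immune sum was mostly the brightest Itgam probe, at a mean level of 4.23 in RA (+) and 3.72 in RA (-) medium. The other Itgam probes were dimmer, with changes of 0.12 and −0.16. Csf1r (0.02) and Cd3e (−0.07) were not called. Aif1 and Adgre1 were called lower but detected on no RA (-) array, and the immune markers Ptprc, Cd14 and Lyz2 were not detected. The part of these cells in the changes of Hoxa5 and Hoxa7 was not tested.

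The tested genes nearest to the averaged Hoxa profile were found by the root mean square distance over the 8 arrays between log2 levels, each centred on its own mean. They were Ripk4 (0.71), Syk (0.73), Cox6a2 (0.75), Htr2b (0.85) and Spock3 (0.88). For single members the nearest gene was Glra2 for Hoxa5 (0.93), Syk for Hoxa6 (0.60), Ctag2l2 for Hoxa7 (1.51) and Vwf for Hoxa9 (0.10). The gene nearest to Hoxa7 was farther from it than the nearest genes were from the other tested members. Glra2, a glycine receptor subunit, Ripk4 and Cox6a2 were each detected on all RA (+) arrays and on no RA (-) array. Syk was detected on 3 RA (+) arrays and 1 RA (-) array, and Ctag2l2 on 2 of each. The distances of these genes thus rest in part on background values. Ctag2l2 had a change of 0.68, not called, against −1.05 for Hoxa7.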

How the data were processed

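Processed spot intensities deposited by the authors were extracted with Agilent Feature Extraction 11.5.1.1, per the file headers, and are background-subtracted and detrended within each array. The authors also deposited a value table of log2 values, 55821 probes centred on their mean over the 8 arrays; its columns correlated at 0.9999 or more with the centred scanner values, the exact scaling is unknown, and the column medians were −0.23, −0.22, 0.02 and −0.01 for RA (+) and −0.07, 0.01, 0.17 and 0.20 for RA (-) animals 1 to 4. Of 62976 spots, 59305 were not controls; outlier spots were dropped (64 probes lost), and no spot reached saturation. A level is the log2 of the processed intensity minus the array's 75th percentile, averaged over spots of a probe. Names came from RefSeq accessions (GRCm38.p6): 27206 probes matched 1 symbol and 28411 none. The brightest probe per symbol was tested if well above background on at least 4 arrays (13539 genes), with limma 3.58.1 in R 4.3.3, two-sided, animal as a fixed block. The small number of arrays, 4 per medium, limits precision.

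The series text says that each animal's cells were split between media. Same-numbered arrays deviated together from their medium's mean (r 0.52, 0.30, 0.19 and 0.33 for animals 1 to 4). Xist was well above background only on both arrays of animal 4. Without the block 8022 genes were called in place of 8705. Alternatives were other scalings, normexp (offset 50) with quantile normalization, filters on dim probes, the mean of a gene's tested probes, the deposited table and leaving out animals; the files lack mean signals, so normexp used median signals. The slide could not be a block, since there was 1. Scripts were tested on simulated data.

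The members and lists were chosen with earlier results of these data known. Named genes are the members, Hoxa13, flanking genes, paralogues, up to 3 called genes of each list with the largest change and any that went against it, and the genes nearest in profile. Some further list genes (Eed, Meis1, Ctcf and undetected ones) were chosen after their values were seen, as was the test of the animal term. Of the flanking genes listed, only the 3 nearest on each side are described. Some items that this rule names are not reported here. The position of a probe within its transcript was not used here.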

Additional observations from a re-analysis of the deposited data

Results flagged for a closer look

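Of 28 groups of 4 arrays examined for the Hoxa probes, 1 held an array far from the others. The second Hoxa9 probe stood at −4.02 in RA (+) animal 3 and between −6.83 and −6.41 on the other RA (+) arrays, so that the gap to the nearest array was 0.851 of the whole range. Chance alone flags about 1 in 20 groups. The brighter Hoxa9 probe did not set this array apart.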

How the results depend on the processing

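Under spike-in scaling 5463 genes were called in place of 8705, with 2027 lower in place of 3820, and the median change of all genes was 0.22 in place of 0.07. The count of Hoxa genes called lower was 1 in place of 2 with no replicate block and in animals 3 and 4 alone. It was also 1 with detection required on all 8 arrays, and 1 to 2 when 1 animal was left out (1 without animal 4). Without animal 2 the count of 2 held Hoxa5 and Hoxa6, with Hoxa7 lost. With detection required on all 8 arrays, Hoxa5 is no longer tested and the count of Hoxb genes called lower is 1 in place of 7, since fewer genes are tested. The median change of the tested Hoxa genes, −0.77, was −0.42 with no filter, −0.36 under normexp with quantile normalization and −1.05 with detection on all 8 arrays. The sign turned for Hoxa9 under spike-in scaling (0.040) and without replicate 4 (0.0018, limma adjusted p = 0.990; −0.18 to 0.0018 over the animals left out), for Meis1 under normexp with quantile normalization (−0.0035) and for Hoxd8 in animals 3 and 4 alone (0.077, limma adjusted p = 0.759); the cause was not tested. Hoxa5 was called in all 15 settings that gave it a value, from −4.64 to −1.73, and Hoxa7 in 12 of 16, from −1.36 to −0.61. Hoxd genes called lower numbered 1 in place of 2 without the block and in animals 1 and 2 alone. Apart from Hoxa7 and Hoxd9, the block changed no call of a Hox gene. The alternatives with pairs of animals and the animal term were chosen after seeing the data. Most Hoxa spots lie near background, where the scaling and background correction set the size of a change.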
